A study of Homo sapiens with 2 samples.

Results

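The 10 genes described here encode the receptors, receptor substrates and binding proteins of the insulin and insulin-like growth factor (IGF) axis. They are the receptor genes IGF1R, INSR and IGF2R, the substrate genes IRS1 and IRS2, and the binding protein genes IGFBP2, IGFBP3, IGFBP4, IGFBP6 and IGFBP7. They were taken by gene name from a table of 25534 genes, and each name matched 1 row. RNA was sequenced from HN6, an established human cell line of tongue squamous carcinoma, in a study of what the zinc finger protein ZNF582 does to gene expression in head and neck cancer. There were 2 libraries. The ZNF582 library came from HN6 cells transfected with a ZNF582 overexpression plasmid, and the control library from HN6 cells labelled wild type and control. They are called ZNF582 cells and control cells below. Whether the control received an empty plasmid, how long after transfection RNA was taken and whether a clone was selected are not given in the labels.

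Insulin acts mainly through the insulin receptor, and IGF1 and IGF2 act mainly through the IGF1 receptor. Both receptors are tyrosine kinases that phosphorylate the docking proteins IRS1 and IRS2, which bring in phosphatidylinositol 3-kinase and GRB2 and so feed the AKT and RAS pathways. IGF2R, the cation-independent mannose 6-phosphate receptor, has no kinase: it takes IGF2 to lysosomes and sorts lysosomal enzymes. The secreted IGFBP proteins hold IGFs outside the cell and set how much can reach a receptor. In carcinomas the axis is known as a growth and survival input beside EGFR.

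The ZNF582 library held 17792172 counts and the control library 14765244. ZNF582 itself had 277387 counts in ZNF582 cells, against 14 in control cells, which fits both labels. Of 8 epithelial marker genes all were listed. KRT5 stood at 17.3 FPKM (fragments per kilobase of gene length, scaled to library size) in ZNF582 cells and 10.3 FPKM in control cells. TP63 stood at 2.40 FPKM in ZNF582 cells and 1.85 FPKM in control cells. EPCAM stood at 71.4 FPKM in ZNF582 cells and 91.0 FPKM in control cells. KRT14 was low, at 19 counts in ZNF582 cells against 7 in control cells. The median log2 fold of the 8 markers was 0.52, with 6 above 0 and 2, EPCAM and CDH1, below. The marker past the 2-fold rule defined below was KRT17, a keratin gene with near-identical pseudogene copies that could share its reads, with 2780 counts in ZNF582 cells and 642 in control cells (3.89-fold higher, 3.56 to 4.24). Because there was 1 library per group, no difference below has a replicate check or a p-value. All intervals are 95% intervals, cover counting error only, and do not describe the spread between cultures.

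The promoters of the 5 receptor and substrate genes are shown because the pairs IRS1 and IRS2, and IGF1R and INSR, diverged between the libraries. Each line gives the 250 bases before the RefSeq start, 5′ to 3′ on the gene's strand, from RefSeq on GRCh38.p14. These starts lie upstream of the counted gene spans given below, farthest for INSR and IGF1R, so the windows do not adjoin those spans. Capitals mark matches on either strand to GGGCGG (the GC box of SP1-type factors), CACGTG (an E-box), CCAAT (a box bound by NF-Y), to TATAAA (bound by the TBP protein) or to GTAAACA (the FOXO core). The windows are chr2:226799821-226800070 (minus strand) for IRS1, chr13:109786584-109786833 (minus) for IRS2, chr19:7294415-7294664 (minus) for INSR, chr15:98648289-98648538 (plus) for IGF1R and chr6:159968832-159969081 (plus) for IGF2R.
IRS1: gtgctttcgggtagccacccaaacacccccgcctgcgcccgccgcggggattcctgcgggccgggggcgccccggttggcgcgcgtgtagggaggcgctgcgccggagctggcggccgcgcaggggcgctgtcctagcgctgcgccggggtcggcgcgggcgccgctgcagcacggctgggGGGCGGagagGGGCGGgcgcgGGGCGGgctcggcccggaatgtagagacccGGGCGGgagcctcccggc
IRS2: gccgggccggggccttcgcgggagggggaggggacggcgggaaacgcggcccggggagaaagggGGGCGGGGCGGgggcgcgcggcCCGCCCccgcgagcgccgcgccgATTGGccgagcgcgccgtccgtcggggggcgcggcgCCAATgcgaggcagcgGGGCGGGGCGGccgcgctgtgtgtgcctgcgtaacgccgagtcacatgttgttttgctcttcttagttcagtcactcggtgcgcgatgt
INSR: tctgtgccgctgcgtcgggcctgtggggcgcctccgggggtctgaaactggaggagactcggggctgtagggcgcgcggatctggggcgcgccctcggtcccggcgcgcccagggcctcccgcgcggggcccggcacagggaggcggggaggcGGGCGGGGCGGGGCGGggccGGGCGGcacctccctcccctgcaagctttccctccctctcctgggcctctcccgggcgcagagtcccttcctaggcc
IGF1R: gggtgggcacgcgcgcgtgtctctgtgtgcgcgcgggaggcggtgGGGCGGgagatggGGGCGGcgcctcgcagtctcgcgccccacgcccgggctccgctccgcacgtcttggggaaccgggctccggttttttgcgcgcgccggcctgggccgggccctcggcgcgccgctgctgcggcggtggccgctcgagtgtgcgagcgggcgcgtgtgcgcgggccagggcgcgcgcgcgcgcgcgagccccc
IGF2R: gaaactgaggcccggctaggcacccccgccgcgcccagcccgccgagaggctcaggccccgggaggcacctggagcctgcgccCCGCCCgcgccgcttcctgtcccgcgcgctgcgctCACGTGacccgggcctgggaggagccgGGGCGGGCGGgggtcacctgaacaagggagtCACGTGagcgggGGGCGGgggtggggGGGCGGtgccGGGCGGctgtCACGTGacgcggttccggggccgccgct

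All 5 windows were rich in G and C, from 76.4% in IRS2 to 81.2% in IGF1R, against a median of 58.0% over 35116 such windows of all genes. GC boxes numbered 4 in IRS1, 5 in IRS2, 4 in INSR, 2 in IGF1R and 6 in IGF2R, counting overlapping matches, and 42.6% of all windows hold at least 1. IRS2 had 2 CCAAT matches and the other 4 had 0, where 32% of all windows hold one. IGF2R had 3 E-boxes, which 6.34% of all windows hold at least once, and the other 4 had 0. A TATAAA match was found in 0 of the 5 (10.7% of all windows), and likewise a FOXO core in 0 (2.98%). Among the binding protein genes, IGFBP6 held 1 FOXO core and IGFBP4 1 TATAAA match. Of the 10 genes 9 had a window, and IGFBP7 was the other. These matches describe letters, not sites in use.

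Between the libraries 1 of the 10 genes passed the 2-fold rule. The rule asks for a fold of at least 2 in either direction with a counting interval that excludes 1. It was applied after TMM scaling to genes whose 2 counts summed to 20 or more. IGFBP3 was higher, 0 were lower, 8 were neither, and IGFBP2 was under the count minimum. Over all 16669 genes examined, 4.25% were higher and 5.02% lower, or 9.27% in either direction. At 1.5-fold with the same interval rule, IGFBP3 was higher and INSR, IRS1 and IGFBP6 lower, so 3 of 9 examined genes were lower. The same lower rule took 10.9% of all examined genes, and 9.90% were higher. The median log2 fold of the 9 was -0.46, with 3 above 0 and 6 below, against -0.007 over all examined genes. Scaling by total counts alone moved every log2 fold by -0.11, which put the median of all examined genes at -0.12.

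**Figure D1:**
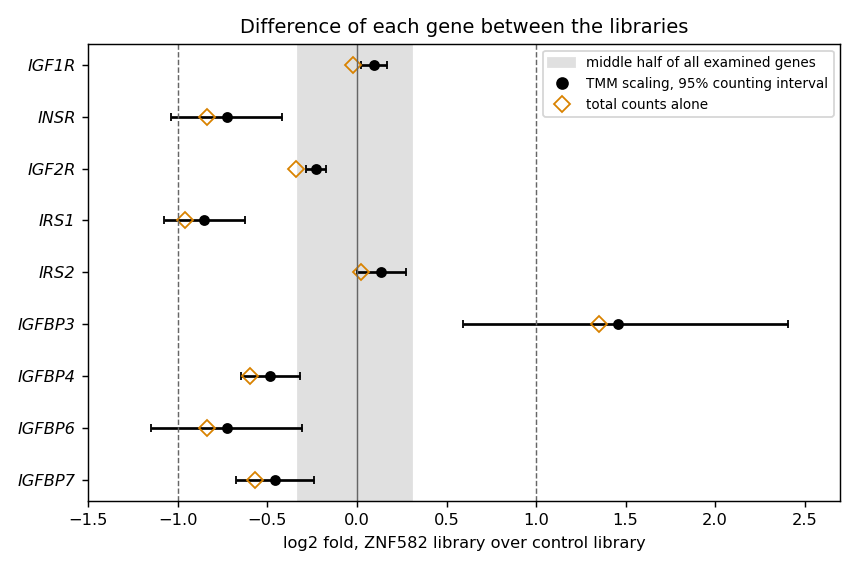
Log2 fold of the ZNF582 library over the control library for the 9 genes with at least 20 counts. Black points and bars are the TMM-scaled fold with its 95% counting interval, open diamonds are folds by total counts alone, the grey band spans the quartiles of all examined genes (-0.33 to 0.31), and dashed lines mark 2-fold. IGFBP3 lies beyond the right line at 1.46, and IRS1, INSR and IGFBP6 lie nearest the left line, from -0.85 to -0.72.

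Of the 2 signalling receptors, IGF1R was nearly level between the libraries and INSR had fewer counts in ZNF582 cells. IGF1R (ENSG00000140443, chromosome 15, 98648971 to 98964530, plus strand), the kinase receptor for IGF1 and IGF2, had 3461 counts in ZNF582 cells and 2907 in control cells. That was 7.90 FPKM in ZNF582 cells against 8.0 FPKM in control cells. Its log2 fold was 0.10 (0.02 to 0.17) with TMM factors and -0.02 by total counts alone, so its sign depended on the scaling. INSR (ENSG00000171105, chromosome 19, 7112255 to 7294034, minus strand) had 148 counts in ZNF582 cells and 220 in control cells, or 0.671 FPKM in ZNF582 cells against 1.20 FPKM in control cells. Its ratio of ZNF582 to control was 0.604 (0.487 to 0.747), short of the 2-fold rule. At these levels INSR stood at percentile 20.9 of examined genes in ZNF582 cells and 29.7 in control cells, while IGF1R stood at 76.4 in ZNF582 cells and 76.1 in control cells. The counts are per gene and do not separate the insulin receptor isoforms.

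The balance of these receptors can be read within each library, free of any scaling between libraries. FPKM of IGF1R was 11.8 times that of INSR (10.0 to 14.0) in ZNF582 cells and 6.66 times (5.80 to 7.67) in control cells. The ratio of these ratios was 1.77 (1.42 to 2.21), so the transcript balance lay further towards IGF1R in ZNF582 cells than counting error allows. No such ratio was computed for genes outside the 6 pairs, so how common a difference of this size is was not measured. Over all examined genes the quartiles of log2 fold were -0.33 and 0.31.

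IGF2R had the highest FPKM of the 10 in both libraries. This gene (ENSG00000197081, chromosome 6, 159969099 to 160113507, plus strand) had 5107 counts in ZNF582 cells and 5361 in control cells, or 18.1 FPKM in ZNF582 cells against 22.9 FPKM in control cells. Its ratio was 0.855 (0.822 to 0.888), outside counting error but at percentile 31.7 among the log2 folds of all examined genes. M6PR, the other mannose 6-phosphate receptor, had 606 counts in ZNF582 cells and 721 in control cells, a ratio of 0.754 (0.676 to 0.841). M6PR shares exon sequence with its neighbour PHC1, which makes its count uncertain. FPKM of IGF2R was 5.64 times that of M6PR in ZNF582 cells and 4.98 times in control cells, and the ratio of these ratios was 1.13 (1.01 to 1.27). Per merged exon length the same ratios were 1.78 in ZNF582 cells and 1.57 in control cells, since the length behind the FPKM of M6PR is far longer.

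The substrate genes diverged. IRS1 (ENSG00000169047, chromosome 2, 226731317 to 226799759, minus strand) had 263 counts in ZNF582 cells and 426 in control cells, or 1.45 FPKM in ZNF582 cells against 2.83 FPKM in control cells. Its ratio was 0.554 (0.473 to 0.647), at percentile 7.85 of all log2 folds and still short of 2-fold, also by total counts alone (log2 fold -0.96). IRS2 (ENSG00000185950, chromosome 13, 109752698 to 109786568, minus strand) had 966 counts in ZNF582 cells and 789 in control cells, or 6.67 FPKM in ZNF582 cells against 6.57 FPKM in control cells. The interval of its ratio, 1.10 (0.999 to 1.21), held 1. IRS2 shares 115 exonic bases with AL162497.1, whose reads cannot be told apart there if strand was not used in counting.

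IRS2 exceeded IRS1 in both libraries. FPKM of IRS1 was 0.217 times that of IRS2 (0.189 to 0.249) in ZNF582 cells and 0.430 times (0.382 to 0.485) in control cells. The ratio of these ratios was 0.504 (0.419 to 0.606), and here too no background of other gene pairs was measured. IRS1 and IRS2 together had 1229 counts in ZNF582 cells and 1215 in control cells, and their summed ratio after scaling was 0.908 (0.838 to 0.983).

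**Figure D2:**
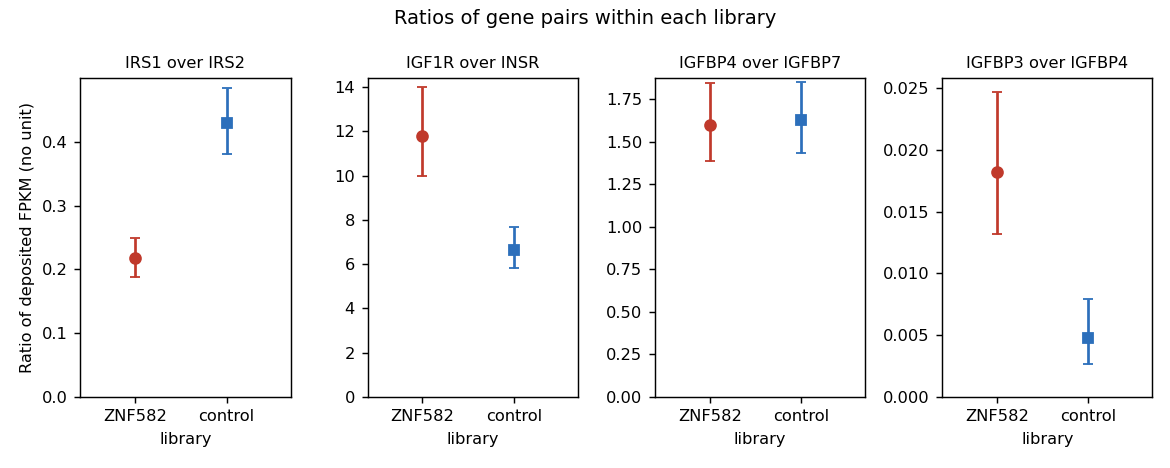
Ratio of deposited FPKM of 4 gene pairs within ZNF582 cells (circle) and control cells (square), with 95% counting intervals. IRS1 over IRS2 was 0.217 in ZNF582 cells and 0.430 in control cells, IGF1R over INSR was 11.8 in ZNF582 cells and 6.66 in control cells, and IGFBP3 over IGFBP4 was also higher in ZNF582 cells, while the intervals of IGFBP4 over IGFBP7 overlapped.

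Among the binding proteins IGFBP3 was the 1 gene called, at a very low level. IGFBP3 (ENSG00000146674, chromosome 7, 45912245 to 45921874, minus strand), the main carrier of IGFs in serum and a gene known to respond to p53 and TGF-beta, had 46 counts in ZNF582 cells and 15 in control cells. It rose 2.75-fold, with a wide interval from 1.51 to 5.31, and lay at percentile 97.8 of all log2 folds. In FPKM it reached 0.251 in ZNF582 cells, against 0.0987 in control cells, so it stood at percentile 8.56 of examined genes in ZNF582 cells and 1.76 in control cells. With a minimum of 100 counts it would not have been examined. The authors' deposited table calls it up and none of the other 9, but that call rests on the same 2 libraries and is no separate check. Relative to IGFBP4, IGFBP3 was 3.85 times higher in ZNF582 cells (2.08 to 7.49), and relative to IGFBP6 4.54 times (2.29 to 9.32).

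IGFBP4 and IGFBP7 were the abundant binding protein transcripts. IGFBP4 (ENSG00000141753, chromosome 17, 40443461 to 40457731, plus strand), an inhibitor of IGF action that the protease PAPPA cleaves, had 539 counts in ZNF582 cells and 676 in control cells. That was 13.8 FPKM in ZNF582 cells against 20.8 in control cells, a ratio of 0.715 (0.638 to 0.802). IGFBP7 (ENSG00000163453, chromosome 4, 57030773 to 57110385, minus strand), a related secreted protein with weak affinity for IGFs, had 315 counts in ZNF582 cells and 388 in control cells, or 8.61 FPKM in ZNF582 cells against 12.8 FPKM in control cells. Its ratio was 0.728 (0.626 to 0.847), and 364 of its exonic bases are shared with IGFBP7-AS1 or POLR2B. IGFBP4 over IGFBP7 was 1.60 by FPKM in ZNF582 cells (1.39 to 1.84) and 1.63 in control cells (1.44 to 1.85). The ratio of these was 0.982 (0.811 to 1.19), an interval that holds 1.

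IGFBP6 (ENSG00000167779, chromosome 12, 53097436 to 53102345, plus strand), which prefers IGF2 over IGF1, had 81 counts in ZNF582 cells and 120 in control cells, or 1.61 FPKM in ZNF582 cells against 2.87 FPKM in control cells. Its ratio was 0.606 (0.451 to 0.809). IGFBP2 (ENSG00000115457, chromosome 2, 216632828 to 216664436, plus strand) had 3 counts in ZNF582 cells and 0 in control cells. Both are at or under the floor of 3 counts that an observed 0 allows, so no fold is given. The 5 binding protein genes together had 984 counts in ZNF582 cells and 1199 in control cells, a scaled ratio of 0.736 (0.676 to 0.802). Their FPKM summed to 24.3 in ZNF582 cells and 36.6 in control cells. IGFBP3, the 1 gene called, added 0.251 FPKM to the first of these sums.

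HN6 is an established cell line and no tissue was sequenced. Markers of fibroblasts and endothelial cells, which also make IGFBP4 and IGFBP7, were looked up in both libraries. Of 6 fibroblast markers 3 had values, and they summed to 266 counts in ZNF582 cells and 337 in control cells. By the 2-fold rule 2 of these were lower, LUM and PDGFRB, where 5.02% of all examined genes were lower and 4.25% higher. LUM had 10 counts in ZNF582 cells and 36 in control cells, PDGFRB 49 in ZNF582 cells and 96 in control cells. COL1A1 had 207 counts in ZNF582 cells and 205 in control cells and stood at 0.896 FPKM in ZNF582 cells and 1.07 in control cells. Of 4 endothelial markers 3 had values, summing to 50 counts in ZNF582 cells and 55 in control cells, with folds on both sides of 1. VWF had 16 counts in ZNF582 cells and 5 in control cells, and was higher by the 2-fold rule with an interval that came close to 1 (2.87-fold, 1.005 to 10.0). CDH5 had 29 counts in ZNF582 cells and 43 in control cells, and PECAM1 had 5 in ZNF582 cells and 7 in control cells, neither past the rule. These counts do not by themselves show that such cells were present, and any link to the IGFBP values was not tested. In RNA from whole cultures, fewer cells that express a gene and less RNA per cell cannot be told apart.

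The order of levels depended on the gene length used. By deposited FPKM the control library ran, from high to low, IGF2R, IGFBP4, IGFBP7, IGF1R, IRS2, IGFBP6, IRS1, INSR and IGFBP3, and the ZNF582 library had the same order. Neighbours that did not differ beyond counting error were IGFBP6 and IRS1 in both libraries, and IGFBP7 and IGF1R in ZNF582 cells. The length implied by the deposited FPKM was within 1% of the summed length of all distinct annotated exons in 86.3% of 8832 well counted genes, and within 1% of the merged exon length in 7.45%. Overlapping exons of alternative transcripts thus entered that length more than once. For IGFBP3 the implied length was 10288 bases, against 10287 of summed distinct exons and 4571 of merged exons. For IRS2 and IGFBP4, each with 1 annotated transcript, both lengths were the same to within 1%. IGF1R, IGFBP6 and IGF2R did not match the summed length. The implied length was 24618 bases for IGF1R, against 25753 of summed and 13941 of merged exons. It was 2827 bases for IGFBP6, against 3222 summed and 1346 merged, and 15844 bases for IGF2R, against 23101 summed and 17843 merged. The annotation behind the counts may thus differ from the one used here for IGF1R, IGFBP6 and IGF2R, and their levels per kilobase of merged exon carry that uncertainty.

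With counts per kilobase of merged exons, scaled to library size as in FPKM, IGF1R stood at 14.0 in ZNF582 cells and 14.1 in control cells, and IGFBP6 at 3.38 in ZNF582 cells and 6.04 in control cells. On that scale IGFBP4 and IGF2R were the top genes of the control library, at 20.8 and 20.3, and did not differ beyond counting error. In the ZNF582 library IGF2R led at 16.1, followed by IGF1R at 14.0 and IGFBP4 at 13.8, and the last 2 did not differ beyond counting error. IGFBP3 remained the lowest of the 9, at 0.566 in ZNF582 cells and 0.222 in control cells. IGF1R exceeded INSR 17.5 times in ZNF582 cells and 9.91 times in control cells. The ratio between libraries is not touched by the choice of length. IGFBP4 made up 51.1% of the summed binding protein level on this scale in ZNF582 cells and 51.2% in control cells, and IGFBP3 2.10% in ZNF582 cells and 0.546% in control cells.

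**Figure D3:**
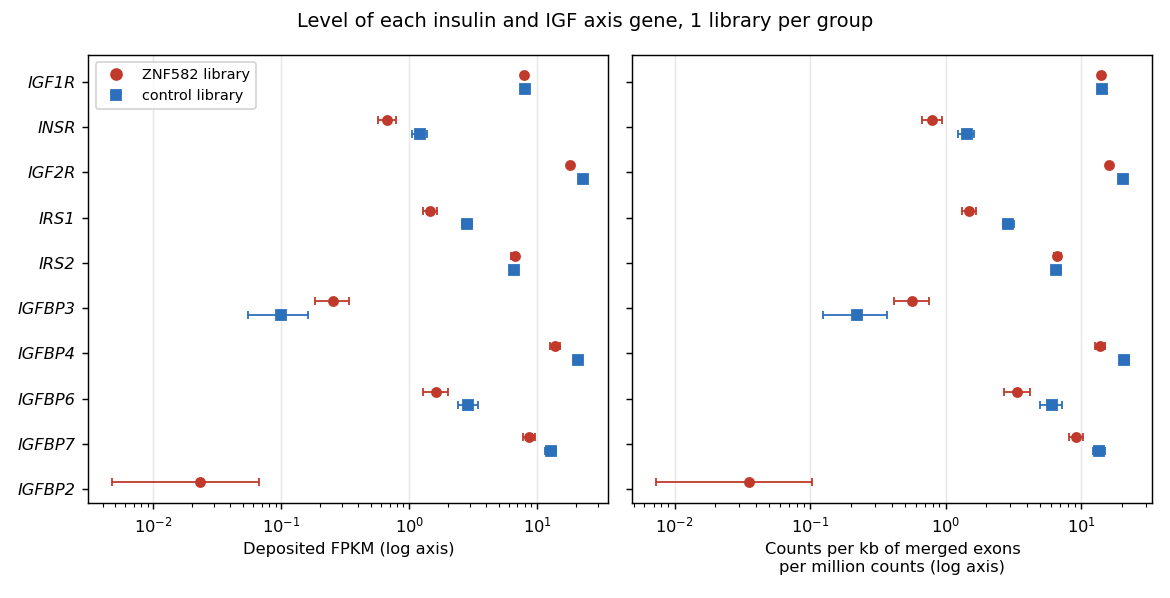
Level of each gene in ZNF582 cells (circles) and control cells (squares), as deposited FPKM on the left and as counts per kilobase of merged exons, scaled to library size, on the right, both on log axes, with 95% counting intervals. IGF1R stands near 8 FPKM on the left and near 14 on the right, and IGFBP2 has no control point because its control count was 0.

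Other genes of the pathway were taken as 7 lists of 97 genes, of which 85 were examined. By the 2-fold rule 3 were higher and 5 lower, against 4.25% and 5.02% of all examined genes, and their median log2 fold was -0.12. Such shares are near those of all genes. The genes for the ligands INS, IGF1 and IGF2, and for IGFBP1, IGFBP5, IGFBPL1, IGFALS and INSRR, were not analysed here. IRS4, a substrate gene used in few tissues, had 1 count in ZNF582 cells and 7 in control cells, under the count minimum.

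Among 7 examined proteases of the binding proteins and their regulators, 1 was lower (5.02% of all examined genes) and 0 higher (4.25%). Log2 folds were above 0 for 1 and below for 6. Their median, -0.59, was the value of ADAM28, with only 17 counts in ZNF582 cells and 23 in control cells. Its interval held 1. The well counted ADAM9 and KLK5 had ratios of 0.937 (0.904 to 0.970) and 0.917 (0.829 to 1.01). The called gene was STC1, stanniocalcin 1, a secreted inhibitor of the protease PAPPA. STC1 had 67 counts in ZNF582 cells and 423 in control cells, and was 7.04-fold lower (5.43 to 9.25). STC2, its relative with the same action, had 682 counts in ZNF582 cells and 950 in control cells, a ratio of 0.644 (0.583 to 0.711). PAPPA itself, the protease of IGFBP4, had 2 counts in ZNF582 cells and 10 in control cells, too few to examine. ADAM12, a metalloprotease reported to cleave IGFBP3, had a ratio of 1.52 (1.32 to 1.74).

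Among 17 receptor-proximal adaptors and inhibitors 1 was lower (5.02% of all examined genes), 0 higher (4.25%) and 16 neither. Their median log2 fold was -0.21. GRB2, the adaptor that joins IRS proteins and SHC to the RAS activator SOS, fell to 560 counts in ZNF582 cells, against 1946 in control cells. It was 3.87-fold lower (3.52 to 4.26), with 4.54 FPKM in ZNF582 cells against 19.0 in control cells. The next by size with at least 100 counts was GRB14, an inhibitor of the insulin receptor, at 76 counts in ZNF582 cells against 100 in control cells and a ratio of 0.682 (0.499 to 0.928).

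Of 15 PI3K and AKT genes 1 was higher (4.25% of all examined genes), 1 lower (5.02%) and 13 neither. The median log2 fold was -0.21. PIK3R1, the p85-alpha regulatory subunit that binds phosphorylated IRS proteins, had 145 counts in ZNF582 cells and 294 in control cells. It was 2.26-fold lower (1.85 to 2.78). TRIB3, a pseudokinase reported to bind AKT and also a stress response gene, was 2.56-fold higher (2.39 to 2.75). PIK3R3, another regulatory subunit, had a ratio of 0.527 (0.459 to 0.603), and its exons overlap those of P3R3URF-PIK3R3. AKT1 had a ratio of 0.620 (0.559 to 0.688), with exonic overlap with AL583722.1.

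Of 16 genes of the mTOR arm 1 was lower, 0 higher and 15 neither, with a median of 0.02. DDIT4, an inhibitor of mTORC1, was the lower one, at 1164 counts in ZNF582 cells and 3666 in control cells, and its exons overlap those of DDIT4-AS1. SESN2, another inhibitor, had a ratio of 1.60 (1.45 to 1.77). Of 16 FOXO factors and targets 2 were higher, 1 lower and 13 neither, with a median of 0.07. Over all examined genes 4.25% were higher and 5.02% lower. FOXO factors are the transcription factors that AKT holds out of the nucleus. The higher genes were GADD45A, at 4547 counts in ZNF582 cells and 785 in control cells, and TXNIP, at 7986 in ZNF582 cells and 496 in control cells. The lower gene was BCL2L11, which encodes the death inducer BIM, at 236 counts in ZNF582 cells and 459 in control cells, with exonic overlap with MIR4435-2HG. IRS2 and INSR are themselves known FOXO targets. Neither passed the rule, though the interval of the INSR ratio, 0.604 (0.487 to 0.747), excluded 1. FOXO activity was not tested.

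Of 14 genes of receptor maturation, sorting and turnover 0 passed the rule in either direction, against 9.27% of all examined genes. Their median was 0.08. The farthest from 0 were M6PR, given above, and GIGYF2, which encodes a protein that binds GRB10, at a ratio of 1.31 (1.23 to 1.38) and with overlap with neighbouring genes. FURIN, the protease that cuts the receptor precursors, had 808 counts in ZNF582 cells and 819 in control cells, a ratio of 0.885 (0.802 to 0.977).

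**Figure D4:**
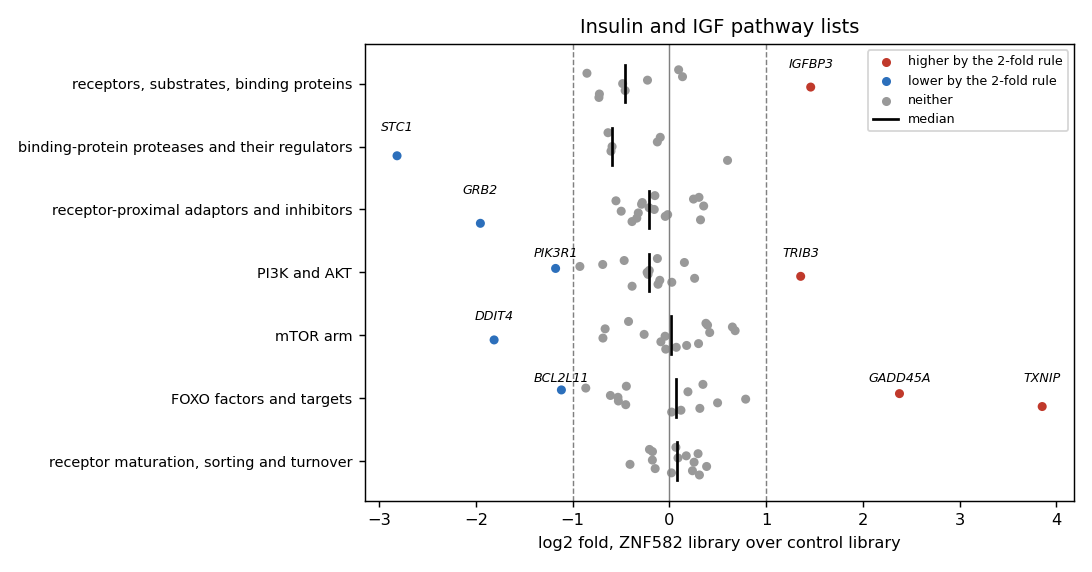
Log2 fold of the ZNF582 library over the control library for the examined genes of the axis (top row) and of 6 pathway lists with examined genes. Each point is a gene, red where higher and blue where lower by the 2-fold rule, black bars are list medians, and dashed lines mark 2-fold. STC1, GRB2, PIK3R1, DDIT4 and BCL2L11 lie left of the lower line and TRIB3, GADD45A and TXNIP right of the upper one.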

How the data were processed

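Per the labels' protocols, total RNA of HN6 cells was made into libraries with a VAHTS Universal V6 kit, 1 library per group. The submitters' processing notes name HISAT2 2.0.4, StringTie 1.3.0 and GRCh38. The counting program, its use of strand and its annotation release are not stated in the labels or headers. Per the file headers, the authors deposited whole-number counts, used here as estimated counts, and FPKM for each gene and library. The authors' p-values and q-values were left out, since the spread assumed with 1 library per group is unknown. 1 record split over 2 lines was rejoined.

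Counts were scaled by library totals and TMM factors (0.962 for ZNF582, 1.04 for control; edgeR 4.0.16, R 4.3.3). Folds carry exact Clopper-Pearson 95% intervals given the sum of both counts, levels exact Poisson intervals, and the ratios of 6 gene pairs exact conditional intervals. Genes whose counts summed to at least 20 were examined, and no test was run. Reads without molecular identifiers are not independent molecules. The floor of 3 counts equals 0.169 CPM in ZNF582 cells and 0.203 CPM in control cells. Exon lengths and exonic overlaps on either strand came from GENCODE 29, which gives the same span for 9 of the 10 genes (not IGF1R). Overlap applied to 39.5% of examined genes.

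The genes and lists were chosen with earlier results of these data known. From each list the text names genes past the rule and the 2 farthest from 0 with at least 100 counts. PAPPA, ADAM9, ADAM12, ADAM28, KLK5, PIK3R3, AKT1, FURIN and the markers printed were added after their values were seen. Likeness to other genes was not measured, since 2 libraries give no pattern. Alternatives were library totals alone, also without ZNF582, DESeq2 1.42.0 size factors, FPKM with pseudocounts of 1 and 0.1, a 1.5-fold rule, other minimums and, chosen after seeing the data, merged exon lengths and leaving out overlapping genes. The procedure was run on simulated counts that held counting error alone, the same model that the intervals assume. That run cannot speak to the spread between cultures. Python 3.11.15, scipy 1.17.1 and pandas 2.3.3 were used.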

Additional observations from a re-analysis of the deposited data

How the results depend on the processing

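No paired analysis was possible because each group has 1 library, and for the same reason no library could be left out. Counting error limits IGFBP3 most: with at least 100 counts required it left the comparison, so 0 of these genes were then higher, and its log2 fold was 0.19 from FPKM plus 1. IGF1R stood at -0.02 by total counts alone and from FPKM plus 1 or 0.1, and at 0.01 by total counts without ZNF582. IGF2R stood at -0.34 by total counts alone and from FPKM plus 0.1, and at -0.32 by total counts without ZNF582 and from FPKM plus 1. INSR stood at -0.40 from FPKM plus 1. Under the 1.5-fold rule 3 of these genes were lower, 7 pathway list genes higher and 11 lower, and 1650 of all genes higher and 1823 lower. Without genes that have exonic overlap 3 pathway list genes were lower and 431 of all genes higher. With at least 100 counts 395 of all genes were higher and 352 lower. Part of these shifts follows from the settings. Total counts alone moved every log2 fold by -0.11, and a pseudocount of 1 FPKM shrinks the folds of genes with low FPKM. The 1.5-fold rule takes in more genes, and stricter minimums leave fewer. Other causes were not tested.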
